A study of Rattus norvegicus with 15 samples.

Results

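De novo lipogenesis, the making of fatty acids from acetyl-CoA, was followed through 10 genes in rat liver RNA. They are the transcription factors Srebf1 and Mlxipl and the enzymes and cofactors Acly, Acaca, Acacb, Fasn, Scd, Elovl6, Thrsp and Me1. Genes were taken where the gene symbol of the count table was identical to one of these names. A row was used for 9 of the 10, out of 32623 genes listed. Mlxipl was not analysed here. The 9 genes passed the filter on low counts, among 14417 genes tested.

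The rats were male Wistar rats, with age not given in the sources used here. Control rats had no treatment. Rats of the cirrhosis group inhaled CCl4, a solvent that injures hepatocytes, for 12 weeks and drank water with phenobarbital (0.35 g/L). No control had phenobarbital, so its part cannot be told apart from that of CCl4. Rats of the cirrhosis & eplerenone group had the same CCl4 and phenobarbital. From week 8 on they also ate eplerenone (100 mg/kg), a blocker of the mineralocorticoid receptor, in hazelnut spread. Eplerenone was given up to week 12 of CCl4, and the treatment plan has rats killed 1 week after treatment ended. Whether the other groups ate the spread, and the feeding state and hour at which livers were taken, are not given in the sources used here. Livers were taken 7 to 10 days after the last CCl4. Rats were chosen for sequencing by how well cirrhosis or treatment had worked, so the groups are not random samples of the treated animals. Poly(A) RNA of whole liver was sequenced in 4 control, 5 cirrhosis and 5 cirrhosis & eplerenone rats, each rat being 1 replicate. Control replicate 1, the fifth control in the labels, was not analysed here.

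SREBP-1, the product of Srebf1, is made as a membrane-bound precursor and is cut and sent to the nucleus when insulin and nutrients are abundant. With ChREBP, the sugar-responsive product of Mlxipl, it raises transcription of the lipogenic enzymes. ATP-citrate lyase (Acly) makes cytosolic acetyl-CoA, acetyl-CoA carboxylase makes malonyl-CoA, and fatty acid synthase (Fasn) joins these units to palmitate. Elovl6 lengthens palmitate, Scd puts in a double bond, Me1 provides NADPH and Thrsp (Spot 14) is a small protein that accompanies lipogenesis. Insulin acts on this pathway partly through the level of Srebf1 RNA and partly through processing of the protein, and RNA counts show the former.

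Promoter sequences of RefSeq (GRCr8, 250 bases before to 50 after a transcript start, written 5′ to 3′) are shown for the regulator Srebf1 and for Acly and Thrsp, whose levels in eplerenone rats lay above those of all cirrhosis rats while Srebf1 overlapped. This order of Acly and Thrsp did not hold with libraries scaled to total counts. Srebf1 has a start at each of 2 positions, and counts per gene do not separate transcripts from them. Entries were matched for 7 of the 10 genes, in 9 windows. Acaca, Fasn and Elovl6 have no entry. Capitals mark CCAAT (or ATTGG on the other strand), the box bound by NF-Y, and GGGCGG (or CCGCCC), the GC box bound by Sp1, both known partners of SREBP. The sequences lie on the minus strand at chr10:45529115-45529414 and chr10:45518961-45519260 for Srebf1, chr10:85963582-85963881 for Acly and chr1:161138915-161139214 for Thrsp.
Srebf1, upstream start: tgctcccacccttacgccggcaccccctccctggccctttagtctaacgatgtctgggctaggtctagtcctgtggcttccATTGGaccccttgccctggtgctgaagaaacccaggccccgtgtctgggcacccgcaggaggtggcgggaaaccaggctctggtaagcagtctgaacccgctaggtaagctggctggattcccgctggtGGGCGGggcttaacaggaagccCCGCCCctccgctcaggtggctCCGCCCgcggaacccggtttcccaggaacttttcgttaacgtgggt
Srebf1, downstream start: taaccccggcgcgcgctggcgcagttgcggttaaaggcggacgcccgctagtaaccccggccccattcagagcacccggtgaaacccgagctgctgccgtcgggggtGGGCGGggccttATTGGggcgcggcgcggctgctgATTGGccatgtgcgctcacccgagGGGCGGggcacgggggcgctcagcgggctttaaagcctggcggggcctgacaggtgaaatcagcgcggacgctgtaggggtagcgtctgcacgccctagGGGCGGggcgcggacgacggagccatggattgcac
Acly: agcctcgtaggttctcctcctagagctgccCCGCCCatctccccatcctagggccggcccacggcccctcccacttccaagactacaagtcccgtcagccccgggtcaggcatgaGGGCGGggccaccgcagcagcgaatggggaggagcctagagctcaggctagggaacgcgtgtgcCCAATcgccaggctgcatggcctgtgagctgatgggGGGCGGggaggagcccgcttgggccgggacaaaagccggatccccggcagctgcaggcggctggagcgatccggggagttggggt
Thrsp: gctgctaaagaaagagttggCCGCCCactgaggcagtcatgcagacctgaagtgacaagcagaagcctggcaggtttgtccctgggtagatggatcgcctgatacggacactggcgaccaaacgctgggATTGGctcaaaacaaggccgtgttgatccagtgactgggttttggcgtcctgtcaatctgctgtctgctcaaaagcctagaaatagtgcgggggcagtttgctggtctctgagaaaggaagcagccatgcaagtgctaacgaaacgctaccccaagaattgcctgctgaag

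The NF-Y box was found in 7 of the 9 windows, against 37.5% of all 33469 promoter windows searched. By gene it was found in 5 of the 7, counting the windows of Mlxipl, which nearly coincide, together and those of Srebf1 together. The GC box was found in 5 of the 9 windows, from 4 of the 7 genes, against 33.1% of all windows. No matches overlapped in the windows shown. The E-box CACGTG, found in 6.42% of all windows, and the sterol element core CACCCCAC (GTGGGGTG on the other strand), found in 2.7%, occurred in 0 of the 9. Both strands were searched, and a missing match says only that these letters are not in this window.

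Counts ranged from 16157491 to 21574767 reads per sample. Levels are given in FPM, that is fragments counted per 1000000 of the library size after TMM scaling. A gene with 3 counts, the smallest amount read as present, stood for 0.121 to 0.191 FPM, and this floor covers counting error only. FPM are not divided by gene length, so levels of different genes are not compared. Changes are log2 fold changes (log2FC, second group minus first) of edgeR's quasi-likelihood test, with false discovery rates (FDR) by Benjamini-Hochberg adjustment over all genes tested, and a gene was called at an FDR below 0.05. Animal labels begin with 13 or 16 in control rats and with 15 or 20 in rats that had CCl4. What this prefix stands for is not given in the sources used here, and it cannot be told apart from CCl4 in comparisons with control.

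**Figure D1:**
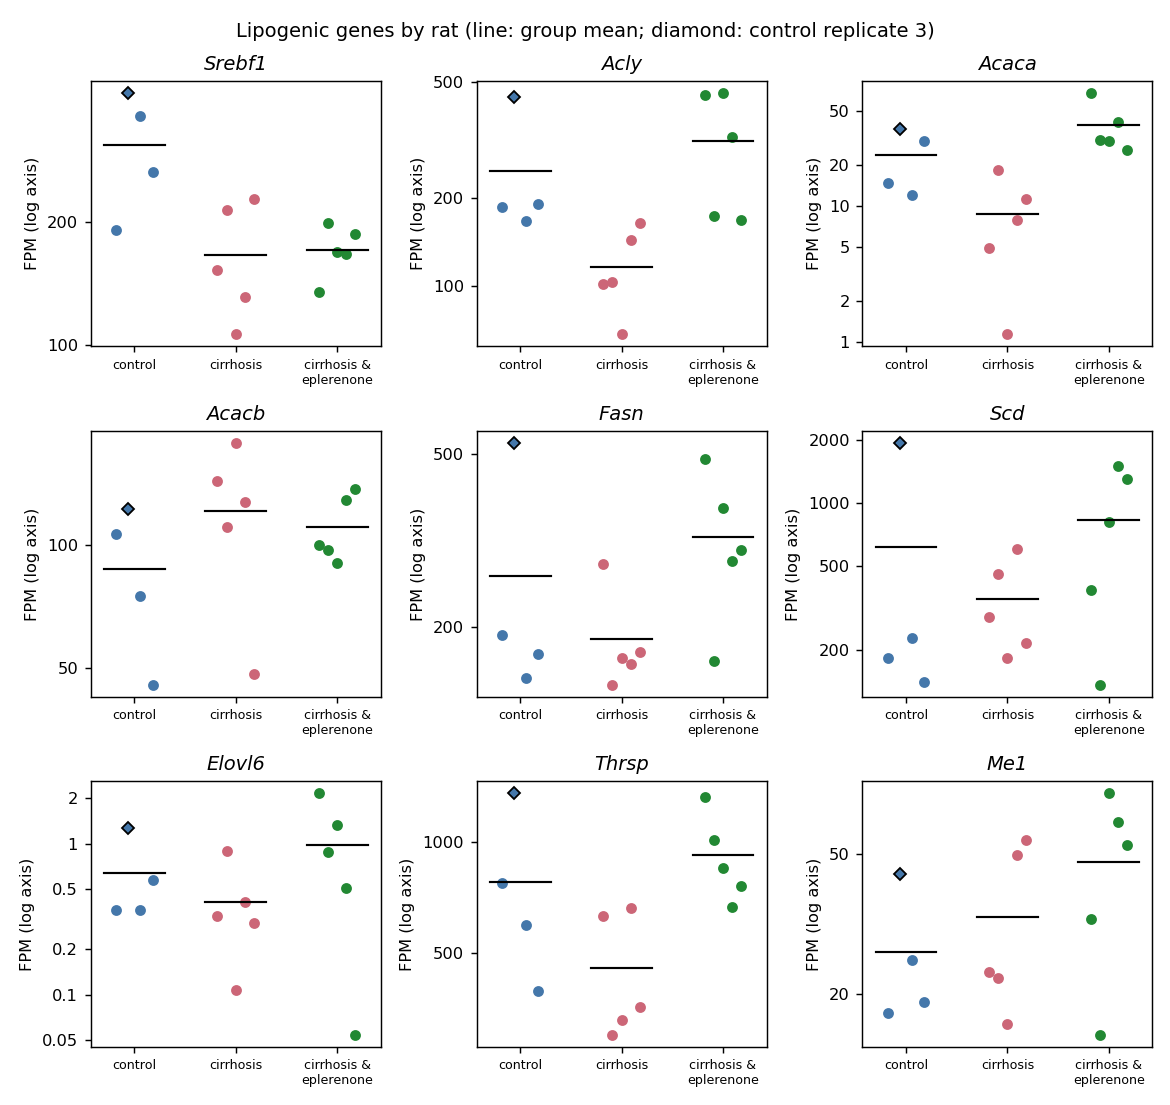
Level of 9 lipogenic genes in each rat, in FPM on a log axis, for 4 control, 5 cirrhosis and 5 cirrhosis & eplerenone rats, with a line at each group mean and a diamond for control replicate 3. Srebf1 was low in both groups that had CCl4, whereas Acly, Acaca and Thrsp were higher in each eplerenone rat than in any rat of the cirrhosis group. With libraries scaled to total counts this separation held for Acaca and not for Acly or Thrsp.

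In cirrhotic livers Srebf1 fell by 0.89 on the log2 scale, and it was the only lipogenic gene called in that comparison. The log2FC was below 0 for 7 of the 9 genes, Acly, Acaca, Fasn, Scd, Elovl6 and Thrsp being lower without a call, and above 0 for Acacb and Me1. In livers of rats that also had eplerenone, Srebf1 averaged 171 FPM, against 166 FPM in the cirrhosis group. Acly, Acaca and Thrsp, in contrast, lay above every cirrhosis rat, with fitted levels 2.71, 4.49 and 2.02 times as high, but 0 of the 9 genes were called between these groups by edgeR. With libraries scaled to total counts, Acaca still lay above every cirrhosis rat, while Acly and Thrsp overlapped.

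Srebf1 (ENSRNOG00000003463, chromosome 10) encodes the precursor of SREBP-1. Its level was 191, 414, 364 and 265 FPM in control replicates 2 to 5. In cirrhosis replicates 1 to 5 it was 153, 214, 106, 131 and 227 FPM. In cirrhosis & eplerenone it was 135, 198, 169, 166 and 187 FPM. Only control replicate 2 lay within the ranges of the groups that had CCl4, and the other controls lay above all of them. With FPM over total counts control replicate 5 (225) also lay within both ranges, which reached 244 in cirrhosis and 237 with eplerenone. Controls averaged 308 ± 99.8 FPM (SD, n = 4). Cirrhosis rats averaged 166 ± 52.8 FPM (SD, n = 5), and eplerenone rats 171 ± 24.2 FPM (SD, n = 5). The log2FC between control and cirrhosis was -0.89 (standard error 0.26, edgeR FDR = 0.0268). DESeq2 gave a log2FC of -0.87 and an FDR of 0.00737. The call was kept in 9 of 14 edgeR fits that each left out 1 rat. It was lost without cirrhosis replicate 1, 3 or 4 or control replicate 3 or 4, with an edgeR FDR of 0.0622, 0.0632, 0.0658, 0.0908 and 0.0724. It was also lost when libraries were scaled to total counts, with a log2FC of -0.60 and an edgeR FDR of 0.106. That scaling moved the median of all genes by 0.289.

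Against control, the log2FC of Srebf1 with eplerenone was -0.85 (standard error 0.26). This difference was not called by edgeR (FDR = 0.0694) and was called by DESeq2 (FDR = 0.0206). Between cirrhosis and cirrhosis & eplerenone it was 0.04 (standard error 0.24, edgeR FDR = 0.94), a difference smaller than its error.

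Across the 9 genes, 1 was called lower in cirrhosis than in control, against a background of 6.71% of all genes tested that were called lower and 13.4% that were called higher. An unadjusted edgeR p under 0.05 with a lower mean was found for 4 genes, Srebf1, Acly, Acaca and Thrsp, where 16.0% of all genes had one. DESeq2 called 3 lower, Srebf1, Acly and Acaca, against 9.93% of all genes. The groups did not overlap, with cirrhosis lower, for 1 gene, Acly, against 9.04% of all genes. With libraries scaled to total counts Acly overlapped as well. The median log2FC was -0.78 over the 9 genes and -0.01 over all genes. Without control replicate 3 the median of the 9 genes was -0.06.

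With eplerenone against control, edgeR called 0 of the 9 genes, against 0.895% of all genes called lower and 4.33% called higher. Srebf1 was the 1 gene with an unadjusted edgeR p under 0.05 and a lower mean, against 6.31% of all genes. DESeq2 called the same 1 gene lower, against 2.12% of all genes. The other 8 genes had higher means than control, and the median log2FC was 0.35. Without control replicate 3 that median was 0.90.

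Between cirrhosis and cirrhosis & eplerenone, 0 of the 9 genes were called by edgeR, where 0.0139% of all genes were called higher. An unadjusted edgeR p under 0.05 with a higher mean was found for 4 of the 9, Acly, Acaca, Thrsp and Fasn, against 6.77% of all genes. DESeq2 called 2 of the 9 higher, Acaca and Acly, against 0.264% of all genes. In simulated counts 11.8% to 13.3% of the DESeq2 calls were false in the 3 comparisons, against 2.11% to 3.83% of the edgeR calls. Every simulated gene had the same relative spread between rats, so these shares do not tell whether the calls of Acaca and Acly are false. The groups did not overlap, with eplerenone higher, for 3 of the 9, Acly, Acaca and Thrsp, against 0.423% of all genes. With FPM over total counts, in place of TMM scaling, Acaca stayed apart (cirrhosis up to 20.8, eplerenone from 25.4). Acly and Thrsp then overlapped. For Acly cirrhosis replicate 4 (174) lay above eplerenone replicates 2 and 5 (162 and 166). For Thrsp cirrhosis replicate 4 (800) lay above eplerenone replicates 4 and 5 (642 and 749). The median log2FC of the 9 genes was 1.02, and that of all genes was 0.01. Leaving out each rat in turn kept the median of the 9 genes between 0.75 and 1.19. The 3 comparisons share groups, so they are not independent of each other.

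**Figure D2:**
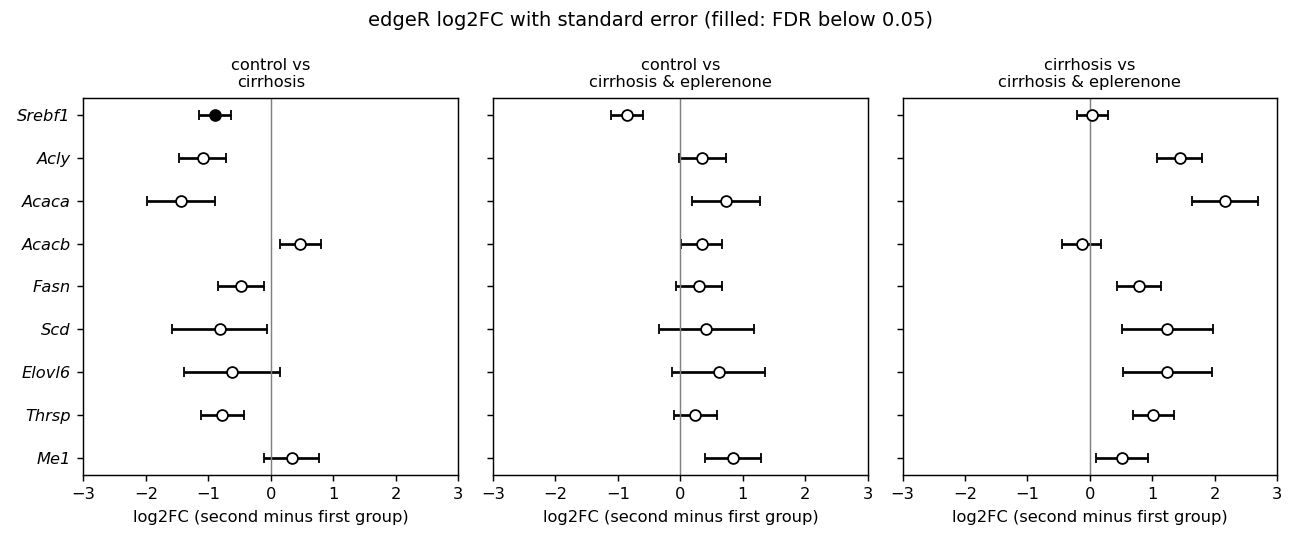
Log2FC with standard error of 9 lipogenic genes in 3 comparisons, second group minus first, with filled points at an edgeR FDR below 0.05. The only filled point is Srebf1 in control against cirrhosis (-0.89), and with eplerenone against cirrhosis 8 of the 9 genes lie above 0.

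Acly (ENSRNOG00000016924, chromosome 10) encodes ATP-citrate lyase, which splits citrate in the cytosol. The controls had 187, 446, 168 and 191 FPM in replicates 2 to 5. The cirrhosis rats had 102, 104, 68.4, 144 and 164 FPM. The eplerenone rats had 452, 175, 459, 324 and 168 FPM. All cirrhosis rats lay below all rats of both other groups, by a margin of only a few FPM at the closest values, and eplerenone replicates 1, 3 and 4 stood apart from replicates 2 and 5. With FPM over total counts the groups overlapped. Cirrhosis replicate 4 (174) then lay above control replicates 2, 4 and 5 (164, 147 and 162) and eplerenone replicates 2 and 5. The log2FC was -1.09 between control and cirrhosis (standard error 0.38, edgeR FDR = 0.0518, DESeq2 FDR = 0.0234). It was 1.44 between cirrhosis and cirrhosis & eplerenone (standard error 0.36, edgeR unadjusted p = 0.00116, edgeR FDR = 0.312, DESeq2 FDR = 0.0251). Against control, cirrhosis & eplerenone differed by 0.35 (standard error 0.38, edgeR FDR = 0.679). Without control replicate 3 the log2FC between control and cirrhosis was -0.65.

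Acetyl-CoA carboxylase has cytosolic and mitochondrial forms. The product of Acaca makes the malonyl-CoA that is used for synthesis, and that of Acacb makes malonyl-CoA at mitochondria, where it holds back fatty acid oxidation. Acaca (ENSRNOG00000034013, chromosome 10) had 14.7, 37.2, 12.0 and 30.3 FPM in control. It had 4.88, 18.3, 1.13, 7.94 and 11.2 FPM in cirrhosis, where replicate 3 held 21 counts and replicate 2 held 449. With eplerenone it had 67.9, 30.5, 30.4, 41.6 and 25.8 FPM. Every eplerenone rat was above every cirrhosis rat, while controls overlapped with both groups.

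The log2FC of Acaca was -1.43 between control and cirrhosis (standard error 0.54, edgeR FDR = 0.0718, DESeq2 FDR = 0.0345). It was 2.17 between cirrhosis and cirrhosis & eplerenone (standard error 0.53, edgeR unadjusted p = 0.000943, edgeR FDR = 0.312, DESeq2 FDR = 0.0138). Among all genes tested, Acaca ranked 35 and Acly 44 by p in the latter comparison. Against control the eplerenone group differed by 0.73 (standard error 0.55, edgeR FDR = 0.502).

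Acacb (ENSRNOG00000000658, chromosome 12) did not share this pattern. It had 106, 122, 75.1 and 45.6 FPM in control and 143, 110.4, 177, 128 and 48.2 FPM in cirrhosis. With eplerenone it had 99.95, 96.95, 90.3, 129 and 137 FPM. The groups overlapped throughout, and cirrhosis replicate 3, with the lowest Acaca of all rats, had the highest Acacb. Its log2FC was 0.47 between control and cirrhosis (standard error 0.33, edgeR FDR = 0.296) and -0.13 between cirrhosis and cirrhosis & eplerenone (standard error 0.31, edgeR FDR = 0.84). A read with several mapping places was counted at every one, so stretches common to both carboxylase genes could have been counted for both.

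Ratios of counts within a rat do not depend on library size. The count of Acaca was 0.0772 to 0.114 of that of Srebf1 in 3 controls and 0.0330 in control replicate 4. It was 0.0107 to 0.0854 of it in cirrhosis and 0.138 to 0.504 of it in cirrhosis & eplerenone. All eplerenone rats thus had a higher ratio than any rat of the other groups. The mean log2 ratio was 2.48 higher than in cirrhosis and 1.60 higher than in control (exact two-sided permutation test, p = 0.00794 for each, adjusted p = 0.0714). With so few rats p cannot go below 0.00794, and p-values were adjusted over 18 tests of 6 ratios in 3 comparisons, chosen after the data had been seen. None of the 18 passed after adjustment.

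The ratio of Acly to Srebf1 was 0.461 to 1.08 in controls. Cirrhosis rats had 0.484 to 1.10, and eplerenone rats 0.880 to 3.36. Eplerenone replicates 2 and 5 lay within the other groups and replicates 1, 3 and 4 above them. The log2 difference between cirrhosis and cirrhosis & eplerenone was 1.28 (exact permutation p = 0.0317, adjusted p = 0.114). From control to cirrhosis it was -0.14 (exact permutation p = 0.651, adjusted p = 0.689).

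The ratio of Acaca to Acacb ran from 0.00639 to 0.233 in cirrhosis and from 0.188 to 0.68 in cirrhosis & eplerenone. Only cirrhosis replicate 5 reached into the range of the eplerenone rats. Their log2 difference was 2.60 (exact permutation p = 0.0159, adjusted p = 0.0714).

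**Figure D3:**
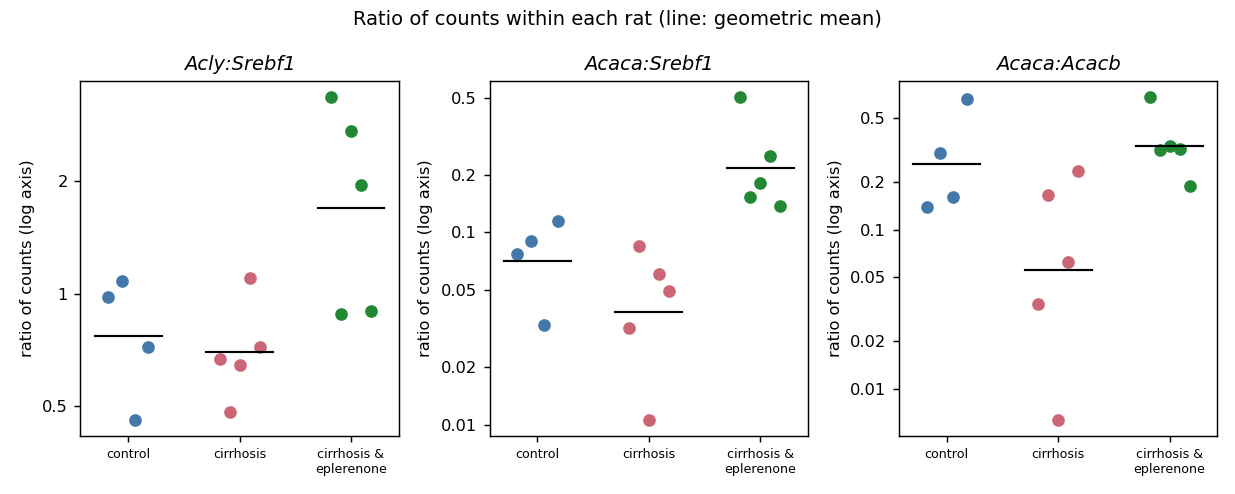
Ratio of counts within each rat on a log axis for Acly to Srebf1, Acaca to Srebf1 and Acaca to Acacb, with 1 point per rat and a line at the geometric mean of each group. For Acaca to Srebf1 the 5 eplerenone rats (0.138 to 0.504) lie above the 9 other rats (up to 0.114).

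Fasn (ENSRNOG00000045636, chromosome 10) encodes fatty acid synthase. It had 192, 529, 153 and 173 FPM in control and 279.7, 148, 170.1, 164 and 175 FPM in cirrhosis. With eplerenone it had 488, 168, 375, 284 and 301 FPM. Control replicate 3 and cirrhosis replicate 1 stood above the rest of their groups, and eplerenone replicate 2 lay among the low cirrhosis rats while the other 4 lay above all cirrhosis rats. With FPM over total counts eplerenone replicate 4 (273) lay below cirrhosis replicate 1 (279). The log2FC was -0.48 between control and cirrhosis (standard error 0.37, edgeR FDR = 0.344). Its sign rested on control replicate 3, without which it was 0.11. Between cirrhosis and cirrhosis & eplerenone it was 0.79 (standard error 0.35, edgeR unadjusted p = 0.04, edgeR FDR = 0.332).

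Scd (ENSRNOG00000013552, chromosome 1), the stearoyl-CoA desaturase, varied widely within groups. The controls had 183, 1926, 229 and 141 FPM. The cirrhosis rats had 287, 459, 184, 608 and 216 FPM. The eplerenone rats had 385, 137, 815, 1494.5 and 1309 FPM. All groups overlapped, and control replicate 3 lay 10.4-fold above the mean of the other controls. The log2FC was -0.82 between control and cirrhosis (standard error 0.76, edgeR FDR = 0.436) and 0.92 without control replicate 3 (edgeR FDR = 0.308). Between cirrhosis and cirrhosis & eplerenone it was 1.24 (standard error 0.73, edgeR FDR = 0.41).

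For Scd the eplerenone difference was not alike in the rats of each label prefix. Eplerenone replicates 3, 4 and 5 carry prefix 20 and had the 3 highest values of that group, and replicates 1 and 2 carry prefix 15. Within prefix 15 (3 cirrhosis and 2 eplerenone rats) the log2FC was -0.24, and within prefix 20 (2 and 3 rats) it was 1.56. In 1 fit of both prefixes the difference of the effects was 1.82 (standard error 0.83, edgeR unadjusted p = 0.0523, edgeR FDR = 0.41) and did not pass the test. For Acly the values within prefixes were 1.78 and 1.07, for Acaca 2.59 and 1.79, for Thrsp 1.48 and 0.59 and for Fasn 0.72 and 0.93. For Acacb they were -0.54 and 0.44. With the prefix as a term the log2FC of Scd was 0.65 rather than 1.24 and that of Me1 0.25 rather than 0.51, while it was 1.41 for Acly, 2.18 for Acaca and 1.02 for Thrsp.

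Elovl6 (ENSRNOG00000010468, chromosome 2), the elongase that takes palmitate to stearate, was near the limit of detection with 1 to 42 counts per rat. Controls had 6 to 22 counts, cirrhosis rats 2 to 22 and eplerenone rats 1 to 42. No difference was detectable at this depth, with log2FC of -0.62 (standard error 0.76) between control and cirrhosis and 1.24 (standard error 0.71, edgeR FDR = 0.404) between cirrhosis and cirrhosis & eplerenone.

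Thrsp (ENSRNOG00000012404, chromosome 1) responds to thyroid hormone and to carbohydrate feeding. It had 776, 1358, 598 and 395 FPM in control. In cirrhosis it had 632, 301, 330.3, 662 and 358 FPM. With eplerenone it had 1324, 1017, 854, 666 and 761 FPM. The lowest eplerenone rat and the highest cirrhosis rat nearly touched, at 666 and 662 FPM. With FPM over total counts these rats changed order, at 642 and 800, and the groups overlapped. The log2FC was -0.78 between control and cirrhosis (standard error 0.35, edgeR FDR = 0.12). It was 1.02 between cirrhosis and cirrhosis & eplerenone (standard error 0.33, edgeR unadjusted p = 0.00799, edgeR FDR = 0.312, DESeq2 FDR = 0.117). The ratio of Thrsp to Srebf1 was 0.97 higher on the log2 scale with eplerenone than in cirrhosis (exact permutation p = 0.0873, adjusted p = 0.175). It was 1.15 higher on the log2 scale with eplerenone than in control (exact permutation p = 0.0159, adjusted p = 0.0714).

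Me1 (ENSRNOG00000009715, chromosome 8), the cytosolic malic enzyme, had 17.7, 43.8, 24.96 and 19.0 FPM in control. It had 23.2, 22.3, 16.4, 49.4 and 54.7 FPM in cirrhosis and 32.7, 15.4, 73.99, 61.5 and 52.8 FPM with eplerenone. Its groups overlapped. In both groups that had CCl4 the rats of prefix 20 lay above those of prefix 15, at 49.4 to 73.99 against 15.4 to 32.7 FPM, a split noticed after the values were seen. The log2FC was 0.33 between control and cirrhosis (standard error 0.44, edgeR FDR = 0.597). Between control and cirrhosis & eplerenone it was 0.84 (standard error 0.45, edgeR FDR = 0.309).

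Single rats moved through much of the pathway together. Control replicate 3 was the highest control for 9 of the 9 genes, between 1.51-fold (Srebf1) and 10.4-fold (Scd) above the mean of the other controls. Fasn was 3.06-fold, Acly 2.45-fold and Thrsp 2.30-fold above it. Cirrhosis replicate 3 was the lowest of its group for 6 of the 9, and the exceptions included Acacb, for which it was the highest. In the eplerenone group replicate 1 was highest for Acaca, Fasn, Elovl6 and Thrsp and lowest for Srebf1. Replicate 2 was the reverse in part, highest for Srebf1 and lowest for Fasn, Scd and Me1.

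Deviations from the group means in log2 FPM were correlated over 14 rats as a description. The rats share library scaling, and control replicate 3 carries part of each value. Scd and Me1 had the highest Pearson's r (0.743, and 0.722 without control replicate 3). Acly and Fasn had 0.692, and 0.566 without that rat. Srebf1 had 0.04 with Fasn, -0.03 with Thrsp, 0.223 with Acly and 0.509 with Acaca. Without control replicate 3 these values were -0.277, -0.293, 0.0503 and 0.465. Acacb had -0.361 with Srebf1 and -0.436 with Acaca, and -0.548 and -0.56 without that rat.

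**Figure D4:**
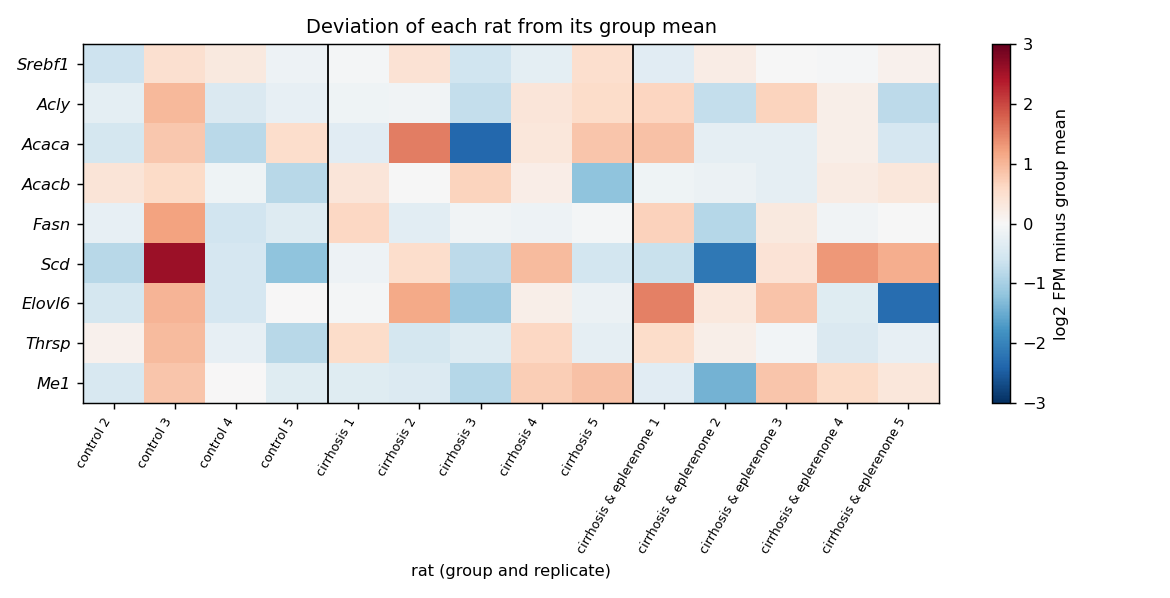
Deviation of each rat from the mean of its group in log2 FPM, for 9 lipogenic genes (rows) and 14 rats (columns), red above and blue below the mean. Control replicate 3 is above its group mean for all 9 genes, and the deepest shades belong to Scd, Acaca and Elovl6.

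The genes most like each lipogenic gene were taken from 13628 protein coding genes by Pearson's r of the same deviations over the 14 rats. They were picked as the highest of that many values, so their size is a description only. For Acaca they were Slc25a44 (0.94), Slc35e1 (0.937) and Ccdc186 (0.922), and for Acacb they were Snx17 (0.945), Morn2 (0.936) and Gnptg (0.919). For Srebf1 they were Adamts12 (0.882), AABR07019209.2 (0.848) and Creb1 (0.847). For Acly they were Fgd6 (0.863), Per1 (0.857) and Ywhag (0.847). For Thrsp they included Cyp2c24 (0.82) and Lpin2 (0.765).

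SREBP is held in the endoplasmic reticulum by the Insig proteins and carried out by Scap. Of the 11 genes for this processing, 1 was called lower in cirrhosis and 0 higher, against 6.71% and 13.4% of all genes tested. With eplerenone 0 were called by edgeR against cirrhosis (3 with an unadjusted p under 0.05, 0 by DESeq2) and 0 against control (2 with an unadjusted p under 0.05, 1 by DESeq2). Of all 14417 genes tested, 2076 and 2952 had an unadjusted edgeR p under 0.05 in these comparisons. The gene called in cirrhosis was Insig2, whose hepatic form falls under insulin. It had 145.6, 225, 303 and 340.4 FPM in control and 70.02, 62.0, 69.0, 28.8 and 115.3 FPM in cirrhosis. Every cirrhosis rat lay below every control. The log2FC was -1.88 (standard error 0.49, edgeR FDR = 0.0172). Insig1, a direct SREBP target, went the other way in its means without being called (log2FC 0.49, standard error 0.43, edgeR FDR = 0.416). Scap differed by -0.04 (standard error 0.17). The call of Insig2 was lost in 1 of 14 fits that each left out 1 rat, without control replicate 5 (edgeR FDR = 0.0557).

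Of 20 partners and upstream regulators of SREBP-1 and ChREBP, 3 were called lower in cirrhosis and 1 higher. The shares of all genes were 6.71% and 13.4%. Irs1, an adaptor of the insulin receptor, had a log2FC of -1.51 (standard error 0.45, edgeR FDR = 0.0301), the receptor Insr -1.04 (standard error 0.33, edgeR FDR = 0.0372) and the kinase Akt2 -1.0 (standard error 0.23, edgeR FDR = 0.00926). Akt2 had 39.8, 59.5, 42.5 and 62.7 FPM in control and 16.3 to 33.0 FPM in cirrhosis, and with eplerenone 35.3 to 60.2 FPM, above all cirrhosis rats (log2FC 0.80, standard error 0.22, edgeR FDR = 0.312). Without TMM scaling eplerenone replicate 5 (647 of 18596271 reads) lay below cirrhosis replicate 2 (810 of 21574767 reads). The call of Akt2 was kept in all 14 fits that each left out 1 rat. That of Irs1 was lost in 6 of them and that of Insr in 7, with edgeR FDR of up to 0.0867 and 0.11. Txnip, a well-known target of ChREBP, rose (log2FC 0.99, standard error 0.29, edgeR FDR = 0.0298). With eplerenone its mean was 94.8 ± 29.9 FPM (SD, n = 5). The cirrhosis mean was 98.1 ± 32.4 FPM (SD, n = 5) and the control mean 49.3 ± 16.0 FPM (SD, n = 4). Its call was lost in 4 of the 14 fits, with an edgeR FDR of up to 0.0996.

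Pyruvate kinase Pklr, likewise a target of ChREBP, did not follow Txnip. It had 138, 240.3, 122 and 157 FPM in control and 62.9, 43.1, 35.1, 71.8 and 181 FPM in cirrhosis. With eplerenone it had 148, 137, 131, 231 and 152 FPM. Cirrhosis replicate 5 stood among the controls and the other 4 lay below all of them. Its log2FC was -1.06 between control and cirrhosis (standard error 0.39, edgeR FDR = 0.0644) and 1.02 with eplerenone (standard error 0.37, edgeR FDR = 0.314).

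Pklr belongs to 18 tested genes for the supply of carbon and NADPH. Of these 4 were called lower in cirrhosis and 0 higher, against 6.71% and 13.4% of all genes tested. Among them were the pyruvate dehydrogenase subunit Pdha1 (-1.22), citrate synthase Cs (-0.56) and the NADPH-forming Idh1 (-0.77). The citrate carrier Slc25a1 differed by 0.09 (standard error 0.29). With eplerenone edgeR called 0 of the 18 against cirrhosis (7 with an unadjusted p under 0.05, 0 by DESeq2) and 0 against control (2 with an unadjusted p under 0.05, 2 by DESeq2, Idh1 and Pfkfb1). An unadjusted edgeR p under 0.05 was found for 2076 and 2952 of all 14417 genes in these comparisons. With each rat left out in turn the call of Pdha1 in cirrhosis was kept in all 14 fits, and those of Cs and Idh1 were lost in 7 and 6.

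Among 12 other elongases and desaturases, 4 were called lower in cirrhosis and 1 higher, against 6.71% and 13.4% of all genes tested. Elovl5, an elongase of polyunsaturated fatty acids, had 56.4, 120.0, 109 and 132 FPM in control. It had 7.48, 20.5, 4.80, 6.71 and 53.4 FPM in cirrhosis, lower in every rat (log2FC -2.49, standard error 0.69, edgeR FDR = 0.0219). Without TMM scaling cirrhosis replicate 5 (897 of 17129099 reads) lay above control replicate 2 (936 of 18921896 reads). The desaturases Fads1 (log2FC -0.86) and Fads2 (-1.05) and the dehydratase Hacd2 were called lower as well. Scd2, a paralog of Scd that is low in adult hepatocytes, rose from 4.88 ± 1.08 FPM (SD, n = 4) to 17.3 ± 5.98 (SD, n = 5) in cirrhosis (log2FC 1.82, standard error 0.30, edgeR FDR = 0.00171). It remained called against control with eplerenone (log2FC 1.53, standard error 0.30, edgeR FDR = 0.0103), as did Hacd2, which was lower (-0.92, edgeR FDR = 0.016). Both calls of Scd2 were kept in all 14 fits that each left out 1 rat. In cirrhosis the call of Elovl5 was lost in 4 of them (without cirrhosis replicate 1 or 4 or control replicate 3 or 5), that of Fads1 in 5 and that of Fads2 in 8.

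Triglyceride synthesis and lipid droplets were covered by 17 tested genes, with 3 called lower in cirrhosis (Dgat2, Plin2 and Lpin1) and 1 higher (Lpin2). The shares of all genes were 6.71% lower and 13.4% higher. Dgat2, which adds the last fatty acid to triglyceride, had 423, 558, 435 and 446 FPM in control. It had 192, 204, 189.9, 199 and 330.2 FPM in cirrhosis, below all controls (log2FC -1.06, standard error 0.23, edgeR FDR = 0.00728). Plin2, which coats lipid droplets, had a log2FC of -1.41 (standard error 0.37, edgeR FDR = 0.0179). Lpin1 was called only narrowly (log2FC -1.51, edgeR FDR = 0.0496) and lost the call in 11 of 14 fits that each left out 1 rat, with a log2FC between -1.97 and -0.81. The call of Dgat2 was kept in all 14, that of Plin2 was lost in 2 (without control replicate 4 or 5) and that of Lpin2 in 7. Lpin2 was also called higher against control with eplerenone (log2FC 0.94, edgeR FDR = 0.0289). The lists of lipogenic, supply, elongase and triglyceride genes had medians of -0.78, -0.28, -0.49 and -0.56 between control and cirrhosis, where that of all genes was -0.01.

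**Figure D5:**
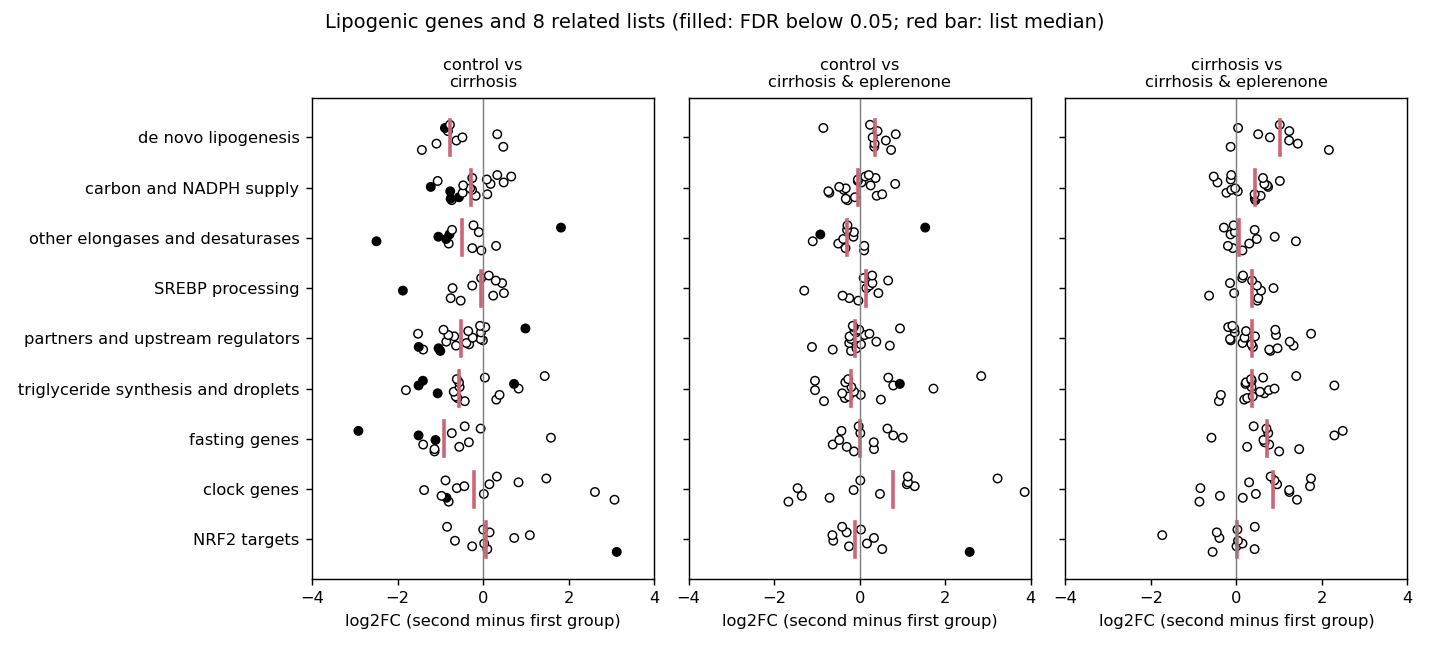
Log2FC of each tested gene in the lipogenic list and 8 related lists, for 3 comparisons, with filled points at an edgeR FDR below 0.05 and a red bar at the list median. In cirrhosis against control called genes occur in every list, mostly below 0, and with eplerenone against cirrhosis no point is filled by edgeR.

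Lists for the feeding state and the time of day were read beside these results. Of 12 fasting genes, 3 were called lower in cirrhosis (Pdk4 and Lpin1 among them), against 6.71% of all genes, with a list median of -0.92. With eplerenone against cirrhosis the median was 0.73 with 0 called by edgeR. An unadjusted edgeR p under 0.05 was found there for 3 of them and for 2076 of all 14417 genes. DESeq2 called 1 there, Lpin1, which is also in the triglyceride list. Pdk4, which shuts off pyruvate dehydrogenase in fasting, had 78.1 and 30.1 FPM in eplerenone replicates 1 and 2 and 2.95 to 11.8 FPM in the other 3. Its call in cirrhosis was lost without control replicate 5 (edgeR FDR = 0.0601). Eplerenone replicate 1 thus had the highest Pdk4 of its group together with the highest Acaca, Fasn and Thrsp.

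Of 14 clock genes, 1 was called in cirrhosis (Clock, lower), a share close to the 6.71% of all genes called lower, and 0 with eplerenone against control, where 10 had an unadjusted edgeR p under 0.05 and DESeq2 called 2, Dbp and Per3. Of all 14417 genes tested, 2952 had an unadjusted edgeR p under 0.05 with eplerenone against control. Dbp, a clock output with a strong daily rhythm, had 2.35 to 16.8 FPM in control. It had 10.5, 8.19, 8.84, 182.0 and 5.59 FPM in cirrhosis and 186, 257, 23.7, 9.08 and 33.6 FPM with eplerenone. Of 10 tested NRF2 targets, 1 was called in cirrhosis, Abcc3 (log2FC 3.13), which was also higher than control with eplerenone (2.57). Of all genes tested, 13.4% were called higher than control in cirrhosis and 4.33% with eplerenone. The call of Clock was lost in 4 of 14 fits that each left out 1 rat, and that of Abcc3 in none in cirrhosis and in 8 with eplerenone. The part of feeding, time of day and NRF2 in the levels of the lipogenic genes was not tested.

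Marker RNA of several cell types differed between rats that had CCl4 and controls. Such levels do not separate the number of cells from expression per cell. In whole liver, fewer hepatocytes and less lipogenic RNA per hepatocyte cannot be told apart. The summed level of 14 hepatocyte markers lay between 185000 and 213000 FPM in control. It lay between 140000 and 200000 FPM in cirrhosis and between 110000 and 202000 FPM with eplerenone. By edgeR 2 of the 14 (Fabp1 and Hnf4a) were called lower in cirrhosis and 0 higher, against 6.71% and 13.4% of all genes. DESeq2 called 4 lower and 1, Tf, higher. The log2FC was below 0 for 11 of the 14 and above 0 for 3. Tf, a large part of the sum, had 26593 to 39566 FPM in control and 41351 to 57415 FPM in cirrhosis. The hepatocyte marker Alb was at 56069 FPM or more in each rat, so hepatocyte RNA was abundant in every sample. All 7 cholangiocyte markers and 6 of 9 stellate cell and fibroblast markers were called higher in cirrhosis, with summed levels of 47.8 to 148 against 14.8 to 24.5 FPM and of 274 to 534 against 148 to 245 FPM. With eplerenone these sums were 47.9 to 102 and 399 to 526 FPM, within or close to the cirrhosis range, and 0 of those markers were called against cirrhosis by edgeR or DESeq2 (2 stellate cell and fibroblast markers had an unadjusted edgeR p under 0.05). By gene, all 7 cholangiocyte markers and 7 of the 9 stellate cell and fibroblast markers had lower means with eplerenone than in cirrhosis, with median log2FC of -0.55 and -0.35. Between control and cirrhosis, 8 of these 9 had a log2FC above 0. The stellate cell marker Lrat went the other way, with 12.3 to 20.2 FPM in control and 2.49 to 14.1 FPM in cirrhosis.

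Adipose tissue makes the same enzymes. Of 8 adipocyte markers, Fabp4 and Cidea were called higher in cirrhosis, but the defining markers Adipoq, Plin1, Lep and Retn had at most 3 counts in every control and cirrhosis rat. With eplerenone Adipoq reached 9 counts in replicate 3. The list summed to 22.6 to 33.2 FPM in control rats, to 23.7 to 102 FPM in cirrhosis and to 34.1 to 75.6 FPM with eplerenone. Of the immune and vascular lists, 4 of 7 lymphocyte markers were called higher in cirrhosis, against 13.4% of all genes. Macrophage markers were called both higher (Trem2) and lower (Cd163), and endothelial markers likewise (Vwf and Kdr). The part of these cells in the lipogenic results was not tested.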

How the data were processed

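The authors selected poly(A) RNA of whole liver, sequenced 150 bp from both ends, mapped reads to rn6 with HISAT2 2.1.0 and counted them over exons with featureCounts (Ensembl annotation), counting reads with several places at each. Use of strand is not given in the sources used here, so overlapping or antisense genes are uncertain. The deposited table holds raw counts of reads per gene.

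Counts were filtered with filterByExpr (smallest count 10), scaled by TMM and fitted over 3 groups in 1 model with edgeR 4.0.16 (quasi-likelihood) in R 4.3.3. Benjamini-Hochberg adjustment covered 14417 genes (FDR below 0.05). Log2 FPM for correlations used a prior count of 2. DESeq2 1.42.0, other scalings and filters, 2-group fits, the label prefix, a replicate block and fits without each rat were alternatives. A fit of 4 rats per group, without cirrhosis replicate 5 and cirrhosis & eplerenone replicate 3, which stood apart in earlier results on these data, was another. Ratios used exact permutation tests (scipy 1.17.1) and were added after the values were seen. Both tools were tested on simulated counts.

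The 10 genes and all lists were chosen with earlier results of these data known. In each list up to 4 called genes with the largest absolute log2FC were named, or the 2 with the smallest p where none was called. The 3 genes most like a lipogenic gene were named as well, and other genes were named after their values were seen. Replicate numbers come from sample titles. Deviations of rats with the same number had correlations of -0.333 to 0.187 in 13 pairs, 3 of them over 0.1, so the numbers were not read as pairs. P-values measure the spread between the rats sequenced. Mlxipl, control replicate 1 and some genes that the naming rule picked are not reported here.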

Additional observations from a re-analysis of the deposited data

Results flagged for a closer look

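Dixon's criterion at 95% marks the highest or lowest rat of a group when its gap to the next rat takes up most of the group's range, and by chance about 1 in 20 groups is marked. It was applied to 27 groups of the 9 lipogenic genes and marked 4. It was applied to 108 groups of other named genes and marked 10. Neither share was tested against chance.

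Control replicate 3 stood apart for Acly (446.4 FPM), Fasn (529.2 FPM) and Scd (1926 FPM), and for Lpin1 (70.8 FPM), the phosphatidate phosphatase of triglyceride synthesis. Cirrhosis replicate 1 stood above its group for Fasn (279.7 FPM). Cirrhosis replicate 4 stood above its group for the clock genes Dbp (182.0 FPM) and Per3 (23.88 FPM), and control replicate 2 above the controls for Per3 (6.933 FPM). Cirrhosis replicate 5 stood above its group for Dgat2 (330.2 FPM) and Pklr (181.2 FPM). Eplerenone replicate 4 stood above its group for Pklr (231.1 FPM), and eplerenone replicate 1 for the NRF2 target Nqo1 (38.82 FPM). Control replicate 2 was the lowest control for Hacd2 (43.23 FPM), and control replicate 5 the highest for Pdk4 (59.0 FPM).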

How the results depend on the processing

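Between control and cirrhosis, the number of lipogenic genes called was 1. It was 0 with total counts and with the replicate block, 3 with DESeq2 and 2 each with 4 rats per group and with the 2 groups alone. DESeq2 called 9.93% of all genes lower in that comparison. The share of all genes is not given here for total counts or for the 2 groups alone. Genes called in all between control and cirrhosis numbered 2906, then 4832 with 4 rats per group and 1743 with the replicate block. Between control and cirrhosis & eplerenone they numbered 753, then 1351 with total counts, 377 with 10 counts in every sample, 1523 with DESeq2 and 270 with the replicate block. DESeq2 called 1 lipogenic gene there. Between cirrhosis and cirrhosis & eplerenone they numbered 2 (2076 with an unadjusted edgeR p under 0.05), then 74 with DESeq2, 1294 with 4 rats per group, 0 with the replicate block, 87 within label prefix 15 and 0 within label prefix 20. Of the lipogenic genes, 2 (Acaca and Acly) were called there by DESeq2 and with 4 rats per group. The rats left out of the latter fit were chosen from earlier results on these data, so its calls are no independent check. Cirrhosis replicate 5 had the lowest level of the stellate cell marker Acta2 in its group (2.26 FPM). Eplerenone replicate 3 had the highest in its group (30.1 FPM). The eplerenone effect differed between prefixes for 0 of 13795 genes (1689 with an unadjusted edgeR p under 0.05) and for 64 without the filter.

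Signs turned, without a call, for Scd (0.097 between control and cirrhosis with the replicate block, -0.24 with eplerenone within prefix 15), for Acacb with eplerenone (0.0044 with the replicate block, 0.44 within prefix 20) and for Srebf1 with eplerenone (-0.015 within prefix 20). The block turned no other sign among the lipogenic genes, and with it 0 lipogenic genes were called in the 3 comparisons. Elovl6 had no value with 10 counts in every sample, with the prefix as a term, within prefix 20, or with the 2 groups alone in the comparisons that hold the cirrhosis group.

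With each rat left out in turn, genes called ranged from 1365 to 4612 between control and cirrhosis (lowest without control replicate 5, highest without cirrhosis replicate 5). They ranged from 221 to 1277 between control and cirrhosis & eplerenone (without control replicate 5 and eplerenone replicate 2) and from 0 to 26 between cirrhosis and cirrhosis & eplerenone (26 without cirrhosis replicate 5). Lipogenic genes called ranged from 0 to 2 and from 0 to 1 in the comparisons with control, and were 0 with eplerenone against cirrhosis. Their median log2FC ranged from -0.96 to -0.062 and from 0.15 to 0.90 against control. Without control replicate 3, Fasn and Scd turned from -0.48 and -0.82 to 0.11 and 0.92 between control and cirrhosis, and their ranges were -0.67 to 0.11 and -1.16 to 0.92. With eplerenone against cirrhosis, Srebf1 ranged from -0.086 to 0.18 and Acacb from -0.34 to 0.041. The prefix difference was called for 0 to 88 genes (88 without cirrhosis replicate 2). Between control and cirrhosis the log2 ratio to Srebf1 ranged from -0.39 to 0.023 for Acly and from -0.050 to 0.43 for Thrsp. Of 25 calls named in the related lists, 6 were kept in each of these fits and 19 were lost in at least 1. Causes of these shifts were not tested. Depth limits only Elovl6 among the lipogenic genes.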
